A study of Rattus norvegicus with 6 samples.

Results

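Glycolysis breaks glucose down to pyruvate in the cytosol, and lactate dehydrogenase turns pyruvate into lactate that leaves the cell through monocarboxylate transporters. When oxygen is short, the transcription factor HIF (hypoxia-inducible factor) is no longer marked for destruction by prolyl hydroxylases. HIF then switches on glycolytic genes, the glucose transporter GLUT1, vascular growth factors and genes that lower mitochondrial respiration. Beta cells, the insulin-producing cells of the islet, sense glucose through its metabolism and are known to keep lactate dehydrogenase and monocarboxylate transport low, whereas most other cells of an islet preparation do not.

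The genes described here are 33 glycolysis and hypoxia response genes, picked by symbol: 20 of glucose and lactate transport, glycolysis and its PFKFB regulators, and 13 hypoxia targets or HIF hydroxylases. Of these, 32 were among the 17321 genes counted in each library. Egln1 had no row in the count tables and is not analysed here. The filter on low counts left 30 of them for testing, 18 of glycolysis and 12 of the hypoxia response, among 12276 genes in all.

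RNA was sequenced from islets of fetal Sprague Dawley rats at gestational day 22, in 3 libraries labelled control and 3 labelled high glucose. The high glucose fetuses lay in the left uterine horn, which was infused with glucose at 4 mg/min for 48 h from day 20. The control fetuses lay in the right horn of the same dam, so each dam gave 1 pair of libraries. Every library pooled islets from 2 pancreata, freed with collagenase and hand-selected, and then recovered for 24 h in culture medium at 5 mM glucose. No allele or transgene was involved in either group. The comparison therefore reads what was left after a day at the same glucose level in both groups. Horn side and glucose cannot be told apart, and the file names and the sample titles give opposite horn letters in 6 of 6 libraries. The treatment labels were followed, and under the other naming every sign of the glucose comparison would turn.

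Total counts lay between 18077841 and 30993532 a library, and 13026 to 13976 genes had a count. Hormone genes were present in every library, and so were markers of other cells. The summed level of 8 beta cell markers was 11148 to 22779 CPM (counts scaled to a common library size by TMM) in control and 4923 to 18554 CPM in high glucose. That of 9 mesenchyme markers was 18215 to 41929 and 25306 to 34375 CPM. By pair, control then high glucose, the beta cell sums were 11148 and 18554, 13509 and 10781, and 22779 and 4923 CPM. Those of alpha and delta cell markers were 3597 and 4579, 2273 and 3315, and 4771 and 1264 CPM. Those of acinar cell markers were 101 and 79.9, 442 and 599, and 24.3 and 308 CPM. Pair 3 had the widest gap in each of these sums. In every pair the summed red cell and leukocyte markers were lower and the duct markers higher in the high glucose library: red cell markers 403 to 1607 against 84.8 to 603 CPM, leukocyte markers 807 to 1038 against 379 to 734 CPM, and duct markers 2403 to 5609 against 4615 to 9689 CPM. The red cell markers Hba1 and Car1 and the acinar markers Pnlip and Ptf1a were at 0 in at least 1 library. What these cell differences contribute to the values below was not tested. In bulk islets, fewer cells of a type and less RNA per cell cannot be told apart.

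The 32 genes together took 0.727% of the control and 0.620% of the high glucose counts in pair 1, against 0.749% and 0.814% in pair 2, then 1.12% and 1.08% in pair 3. Both libraries of pair 3 were above the other 4, and the groups overlapped. Control averaged 0.865% ± 0.221 and high glucose 0.839% ± 0.232 (SD, n = 3 each), and the mean paired difference was -0.0267 percentage points with an SD of 0.0862.

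Per exon length, the most abundant genes were the shared core of the pathway. On the RPKM scale (CPM per kilobase of exon), Gapdh averaged 1189 over the 6 libraries, Aldoa 743, Eno1 631, Ldha 421, Pgk1 364, Pkm 333, Gpi 221 and Pgam1 195. The first 3 of these overlapped in their ranges over libraries (783 to 1447, 453 to 934 and 365 to 835 RPKM). Within each library Gapdh was nevertheless above Aldoa and Eno1. Eno1 was above Aldoa only in the control library of pair 2 (835 against 807 RPKM). Phosphofructokinase, glucose transport and hexokinase sat lower, with Pfkl at 60.1, Slc2a1 at 50.8 and Hk1 at 45.4 RPKM. The hypoxia targets ran from P4ha1 at 113 and Ndrg1 at 91.9 RPKM down to Adm at 8.94 and Car9 at 1.59 RPKM. Tpi1 and Eno2, the triosephosphate isomerase and the neuronal enolase, had 1 to 8 and 0 to 4 counts a library and were not tested. Each is annotated at 2 loci in rn6, Tpi1 at chromosome 4, 157328375 to 157331905, and chromosome 9, 20213752 to 20217282, and Eno2 at chromosome 4, 157285192 to 157294037, and chromosome 9, 20251620 to 20260465. The 6 genes that share this doubled segment had 0 to 22 counts a library. A read pair that fits 2 places equally well gets a mapping quality under the minimum of 10 used for counting, so the counts of Tpi1 and Eno2 are uncertain.

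**Figure D1:**
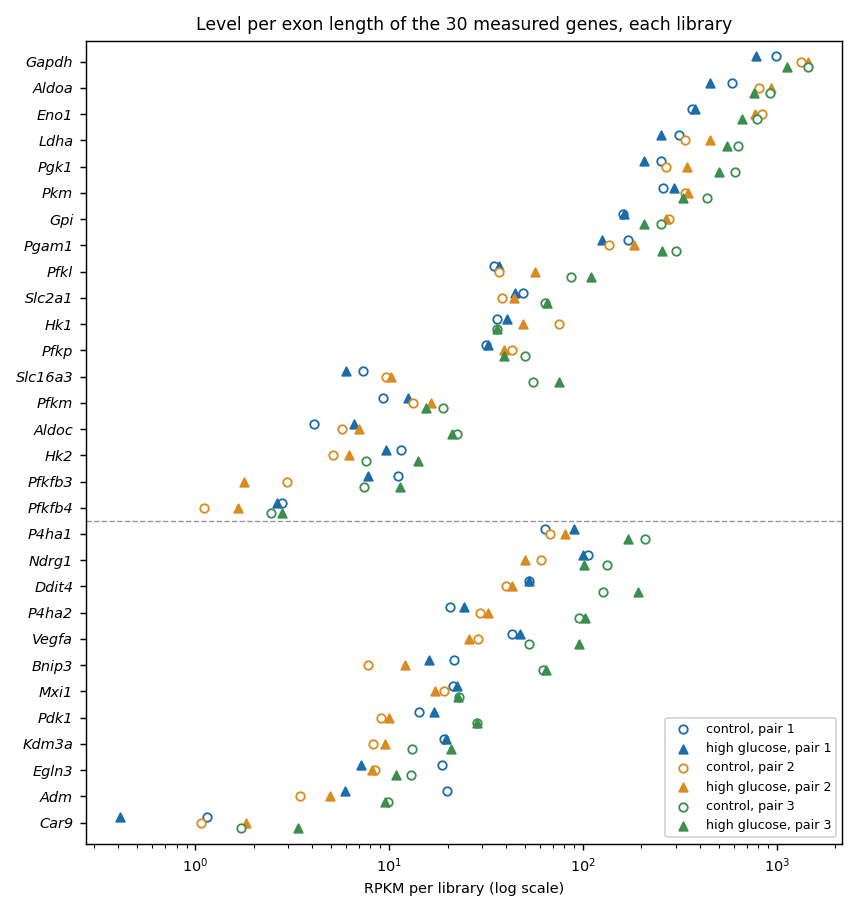
Level per exon length (RPKM, log scale) of the 30 tested genes in each of the 6 libraries; open circles are control, triangles high glucose, and colours the 3 dam pairs, with hypoxia genes under the dashed line. Gapdh lies highest at a mean of 1189 RPKM and Car9 lowest at 1.59 RPKM, and in Slc16a3, Ddit4, P4ha1, P4ha2 and Bnip3 both libraries of pair 3 stand to the right of the other 4.

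The first question was whether glycolysis and hypoxia genes differed between islets of the glucose-infused horn and of the opposite horn of the same dam. None of the 30 passed the test: edgeR's quasi-likelihood test with dam as a block called 0 of 30 at an adjusted p below 0.05, beside 2 of 12276 genes in all (0.0163%). In addition, 0 of the 30 had an unadjusted edgeR p below 0.05, against 592 of the 12276 genes. That share of all genes is about what the threshold gives without any difference. DESeq2 and limma voom also called 0 of the 30. The smallest edgeR adjusted p among them was 0.9996. Fitted log2 differences (high glucose minus control) were positive for 15 genes and negative for 15, with a median of 0.00, the same as over all genes (0.00). The ranges of the 3 control and the 3 high glucose libraries overlapped for all 30. This was not counted over all genes, so it has no background share and is only a description. For 26 of the 30 the 95% interval of the difference lay within 1 on the log2 scale, a 2-fold change, in both directions, which was so for 8758 of the 12276 genes. The other 4 were Egln3, Adm, Car9 and Pfkfb4, and for these a larger change is within the interval. The p-values and intervals rest on the spread between these 3 pairs, which the fit draws toward that of other genes. They are therefore not from the 3 pair values of each gene alone.

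Within pairs, 5 of the 30 were higher in high glucose in all 3 (background 11.7%) and 2 were lower in all 3 (background 11.3%). Both shares are near what all genes showed. The 5 were Pfkl, Pdk1, Ddit4, P4ha2 and Kdm3a, and the 2 were Egln3 and Ndrg1. Of the 5, Ddit4 in pair 1 and Pdk1 in pair 3 had a pair difference of 0.00 on the log2 scale.

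**Figure D2:**
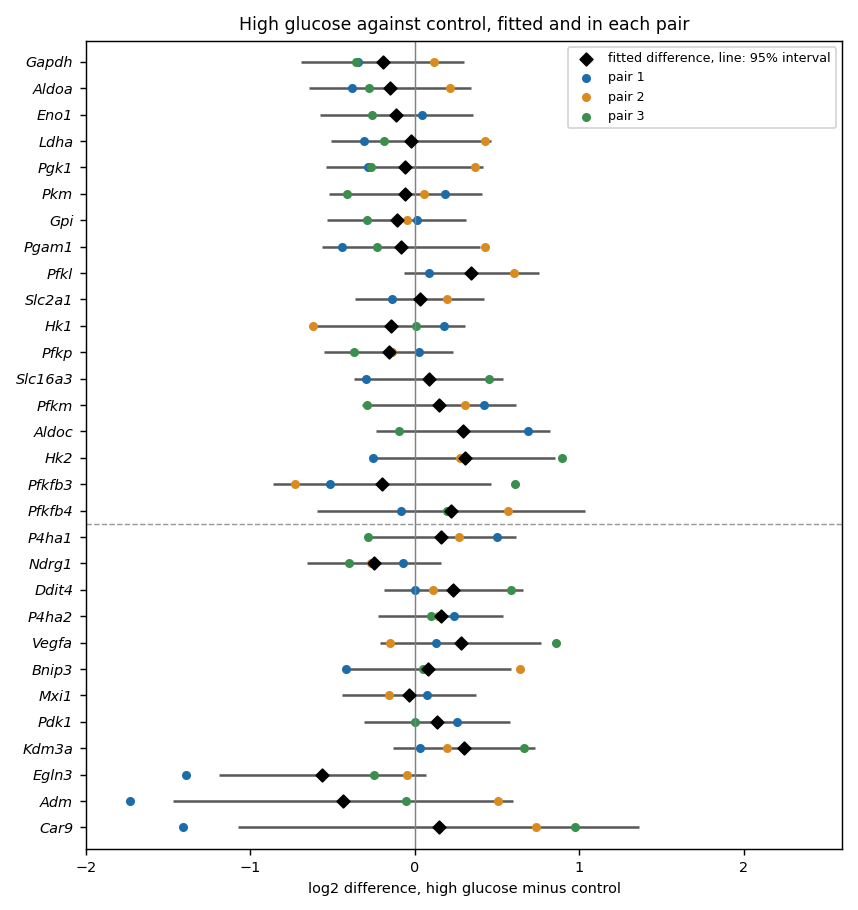
Log2 difference, high glucose minus control, of the 30 tested genes: diamonds with lines are the fitted value and its 95% interval, coloured points the 3 pairs; hypoxia genes stand under the dashed line. All 30 intervals include 0, and the widest belong to Car9 (-1.07 to 1.37) and Adm (-1.47 to 0.60).

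Glucose enters through Slc2a1, the gene of GLUT1, and lactate leaves through Slc16a3, the gene of the monocarboxylate transporter MCT4. Slc2a1 was at 125.8 CPM in control and 114 in high glucose of pair 1, 98.5 and 113 in pair 2, then 164 and 168 in pair 3. Its fitted difference was 0.03 (SE 0.176, interval -0.36 to 0.42) and both libraries of pair 3 were the highest. Slc16a3 (chromosome 10, 110139783 to 110148358, plus strand, rn6) was at 15.6 and 12.7 CPM in pair 1, 20.3 and 21.6 in pair 2, then 117 and 159 in pair 3. Both libraries of pair 3 were thus far above the other 4, and the groups overlapped. The fitted difference was 0.08 (SE 0.204), with pair values of -0.30, 0.08 and 0.45.

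The 18 tested glycolysis genes had a median difference of -0.06, and of -0.11, 0.20 and -0.21 in pairs 1, 2 and 3, against 0.00, 0.02 and -0.02 over all genes. The sign of pair 2 was opposite to that of the others. Gapdh shows this at the level of single libraries, with 1265 CPM in control and 996 in high glucose of pair 1, 1699 and 1842 in pair 2, then 1842 and 1439 in pair 3. Aldoa, Pgk1, Pgam1 and Ldha had the same order of signs, with pair values of -0.38, 0.21 and -0.28 for Aldoa, -0.28, 0.37 and -0.27 for Pgk1, and -0.45, 0.43 and -0.23 for Pgam1. These enzymes split fructose bisphosphate (Aldoa), make ATP (Pgk1) and move the phosphate of phosphoglycerate (Pgam1). Their fitted differences lay between -0.20 (Gapdh, SE 0.223) and -0.03 (Ldha, SE 0.219).

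Ldha encodes the A subunit of lactate dehydrogenase (chromosome 1, 102900288 to 102909707, plus strand, rn6). It was at 501 CPM in control and 403 in high glucose of pair 1, 534 and 718 in pair 2, then 1001 and 879 in pair 3. The control and high glucose means were 679 ± 280 and 667 ± 242 CPM (SD, n = 3 each). The difference between the groups was far smaller than the spread within either. Eno1, Pkm and Gpi, which encode enolase, muscle-type pyruvate kinase and glucose phosphate isomerase, had fitted differences of -0.11, -0.06 and -0.11, with mixed signs over pairs in each.

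Hexokinase takes the first step. Hk1, its ubiquitous form, stood at 117 CPM in control and 132 in high glucose of pair 1, 245 and 160 in pair 2, then 117 and 117 in pair 3. The control library of pair 2 was the highest, followed by its pair. Hk2, the insulin-responsive and hypoxia-responsive form, was at 41.8 and 35.1 CPM in pair 1, 18.6 and 22.6 in pair 2, then 27.5 and 51.3 in pair 3. Its fitted difference was 0.31 (SE 0.246), with pairs of -0.25, 0.28 and 0.90.

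Phosphofructokinase commits sugar to glycolysis, and its 3 subunit genes did not follow each other. Pfkl (chromosome 20, 11393887 to 11415880, plus strand, rn6) was at 95.4 CPM in control and 101 in high glucose of pair 1, 101 and 154 in pair 2, then 237 and 299 in pair 3. It was higher in high glucose in 3 of 3 pairs, with a fitted difference of 0.34 (SE 0.185, edgeR adjusted p 0.9996), the largest among the 30, and its group ranges overlapped. Pfkp, the platelet form, had pair values of 0.03, -0.14 and -0.37, and Pfkm, the muscle form, 0.42, 0.30 and -0.29. On the RPKM scale Pfkl made up 45.9% of the 3 subunits in control and 45.2% in high glucose of pair 1, 39.6% and 50.2% in pair 2, then 55.5% and 66.7% in pair 3. The Pfkp to Pfkl ratio was 0.910 and 0.872 in pair 1, 1.17 and 0.699 in pair 2, then 0.584 and 0.357 in pair 3, so it was lower in high glucose in 3 of 3 pairs.

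Ratios of forms within an enzyme were compared over the pairs for 5 gene pairs, by an exact permutation test that flips the sign within pairs (two-sided), which cannot give a p under 0.25 with 3 pairs. The mean log2 difference of the Pfkp to Pfkl ratio was -0.50 (SD 0.383, exact p 0.25, 0.417 after Benjamini-Hochberg adjustment over the 5). The Ldha to Ldhb ratio, the muscle over the heart subunit on the RPKM scale, was 9.78 and 10.9 in pair 1, 7.24 and 10.4 in pair 2, then 13.8 and 20.2 in pair 3. It was higher in high glucose in 3 of 3 pairs by 0.41 on average (SD 0.216, exact p 0.25, adjusted 0.417), and Ldha made up 87.9% to 95.3% of the 2 subunits. Ldhb was lower in high glucose in 3 of 3 pairs, by -0.47, -0.09 and -0.73 (fitted -0.43, SE 0.198, edgeR adjusted p 0.9996). The pair values of Ldha were -0.31, 0.43 and -0.19, so in pair 2 Ldha made the larger part of the difference in the ratio. Aldoc to Aldoa was also higher in 3 of 3 pairs, by 0.45 (SD 0.546, exact p 0.25, adjusted 0.417), with pair values of 1.07, 0.08 and 0.18 and a mean of 0.13 without pair 1. Aldoa held 96.2% to 98.9% of the aldolase RPKM throughout. Hk2 to Hk1 differed by 0.45 with mixed signs (SD 0.764, exact p 0.50, adjusted 0.625), by 0.89 without pair 1 and by 0.23 without pair 2 or without pair 3, and Pfkm to Pfkl by -0.20 with mixed signs (SD 0.490, exact p 0.75, adjusted 0.75). With 3 pairs none of these ratios can pass the threshold. The ratio of Eno2 to Eno1 was not computed, given the doubled locus.

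**Figure D3:**
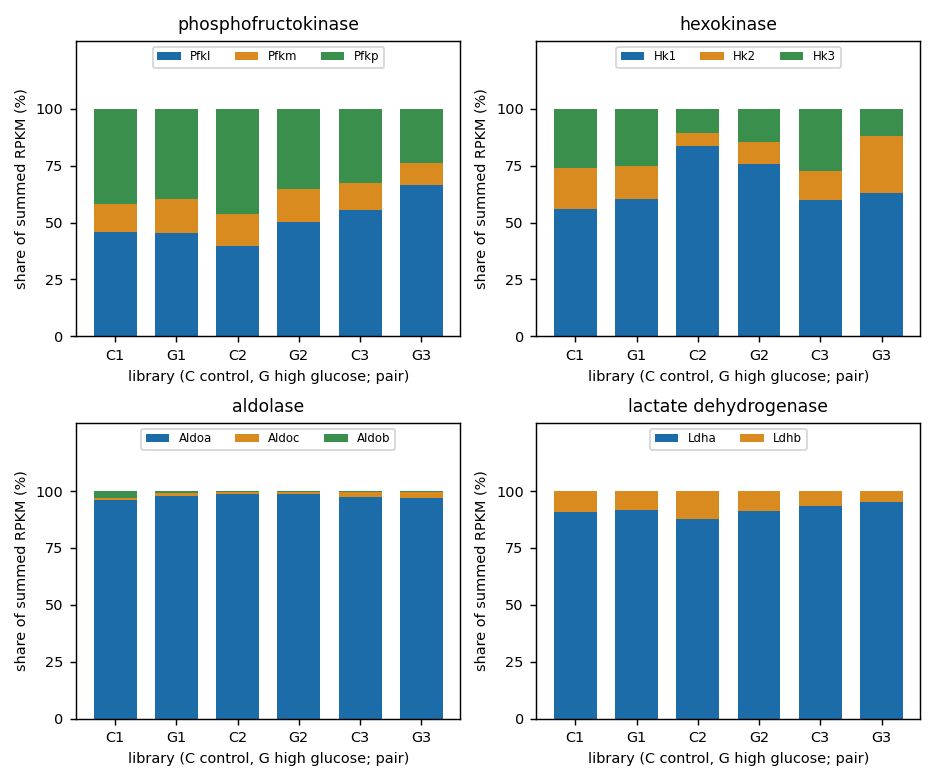
Share of the summed RPKM (%) held by each form of 4 enzymes in each library (C control, G high glucose, number of the pair). Pfkl runs from 39.6% to 66.7% of phosphofructokinase, Hk1 from 56.1% to 83.7% of the sum of Hk1, Hk2 and Hk3, and Aldoa and Ldha hold at least 96.2% and 87.9% of their enzyme.

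Of the summed RPKM of Hk1, Hk2 and Hk3, Hk1 held 56.1% to 83.7%, Hk2 5.70% to 24.8%, and Hk3, which is best known from white blood cells, 10.6% to 27.4%. Hk1 was at its highest share in both libraries of pair 2. The aldolase form Aldoc, common in brain, was at 6.46 and 10.4 CPM in pair 1, 8.97 and 11.0 in pair 2, then 35.4 and 33.2 in pair 3. Again the 2 libraries of pair 3 stood above the rest.

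Pfkfb3 and Pfkfb4 encode enzymes that set the level of fructose 2,6-bisphosphate, the activator of phosphofructokinase. Pfkfb3 was at 24.0 and 16.7 CPM in pair 1, 6.37 and 3.81 in pair 2, then 15.99 and 24.5 in pair 3, with pair values of -0.52, -0.73 and 0.61. Both libraries of pair 2 were low. Pfkfb4 stayed at 1.92 to 4.89 CPM, with a fitted difference of 0.22 (SE 0.367).

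The 12 tested hypoxia genes had a median difference of 0.14, and of 0.02, 0.14 and 0.03 in pairs 1, 2 and 3. Egln3 encodes a prolyl hydroxylase that marks HIF for destruction and is itself a HIF target. Egln3 (chromosome 6, 75050329 to 75075795, minus strand, rn6) was at 52.7 CPM in control and 20.1 in high glucose of pair 1, 23.8 and 23.0 in pair 2, then 36.3 and 30.5 in pair 3. It was lower in high glucose in 3 of 3 pairs, with a fitted difference of -0.56 (SE 0.279, interval -1.19 to 0.07, edgeR adjusted p 0.9996), the lowest among the 30. Pair 1 carried most of it, since the pair values were -1.39, -0.05 and -0.25.

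The secreted peptides went separate ways. Vegfa, the main growth factor of blood vessels, was at 170 and 186 CPM in pair 1, 114 and 102 in pair 2, then 207 and 376 in pair 3. Its high glucose library of pair 3 alone stood apart, and the fitted difference was 0.28 (SE 0.221). Adm, the vasodilator adrenomedullin, was at 27.5 and 8.24 CPM in pair 1, 4.82 and 6.88 in pair 2, then 13.7 and 13.2 in pair 3, with a fitted difference of -0.44 (SE 0.439). In Adm the control library of pair 1 was the high one. Car9, the cell surface carbonic anhydrase that handles acid in hypoxic cells, was the least abundant of the tested genes, at 2.38 and 0.849 CPM in pair 1, 2.23 and 3.76 in pair 2, then 3.55 and 7.04 in pair 3. Its interval, -1.07 to 1.37, leaves the direction unresolved. In pair 1 all of Egln3, Adm and Car9 were at least 1.39 lower on the log2 scale in the high glucose library, and in pair 2 Adm and Car9 were higher by 0.51 and 0.74.

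Bnip3, which directs mitochondria to autophagy, and Pdk1, the kinase that shuts pyruvate out of mitochondria, both had their 2 highest libraries in pair 3. Bnip3 (chromosome 1, 211248098 to 211265282, minus strand, rn6) was at 35.0 and 26.1 CPM in pair 1, 12.6 and 19.6 in pair 2, then 100.3 and 104 in pair 3. Pdk1 was at 22.4 and 26.8 CPM in pair 1, 14.3 and 15.8 in pair 2, then 44.9 and 45.0 in pair 3. Bnip3 had pair values of -0.42, 0.64 and 0.05 (fitted 0.08, SE 0.228), so pairs 1 and 2 went opposite ways. Pdk1 had pair values of 0.26, 0.14 and 0.00 (fitted 0.13, SE 0.2004).

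Ddit4, an inhibitor of mTORC1 signalling (chromosome 20, 29509283 to 29511382, minus strand, rn6), was at 90.8 and 90.8 CPM in pair 1, 69.0 and 74.3 in pair 2, then 219.6 and 330.1 in pair 3. Ndrg1, a stress response gene, was at 304 and 289 CPM in pair 1, 175 and 145 in pair 2, then 384 and 290.5 in pair 3. Ndrg1 was lower in high glucose in 3 of 3 pairs, by -0.07, -0.27 and -0.40 (fitted -0.25, SE 0.183), and Ddit4 differed by 0.00, 0.11 and 0.59 (fitted 0.23, SE 0.190). Mxi1, a MYC antagonist, varied least of the 30, from 39.2 to 52.4 CPM.

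P4ha1 and P4ha2 encode the catalytic subunits of the prolyl hydroxylase that collagen needs to fold. P4ha1 was at 135 and 191 CPM in pair 1, 143 and 172 in pair 2, then 441 and 361 in pair 3. P4ha2 (chromosome 10, 39435227 to 39464134, plus strand, rn6) was at 47.9 and 56.5 CPM in pair 1, 68.2 and 75.1 in pair 2, then 222 and 237 in pair 3. P4ha2 was higher in high glucose in 3 of 3 pairs, by 0.24, 0.14 and 0.10 (fitted 0.16, SE 0.171), which is small beside its difference between dams. Kdm3a, a HIF-induced histone demethylase, was at 84.8 and 86.6 CPM in pair 1, 36.6 and 41.9 in pair 2, then 57.8 and 91.8 in pair 3. It too was higher in high glucose in 3 of 3 pairs (fitted 0.30, SE 0.195).

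The same fit, with treatment in the model, gave the spread between dams, numbered as their pairs. This comparison was chosen after the values were seen. Between the 3 dams 16 of the 30 genes differed (edgeR F-test, adjusted p below 0.05), which is 53.3%, beside 22.8% of all genes. By role this was 8 of 18 glycolysis genes (44.4%) and 8 of 12 hypoxia genes (66.7%). These genes are also more deeply counted than most, with a median mean count of 3523 against 800 over all genes, and their share was not tested against that of genes of like depth. Dam stands for everything that the 2 libraries of a pair shared, which cannot be told apart.

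Among the 30 genes, every difference of dam 3 that passed the test set it above dam 1, dam 2 or both. Against dam 1, 8 of the 30 were higher in dam 3 (background 1.06%) and 0 were lower (background 1.13%). Against dam 2, 12 were higher in dam 3 (background 7.16%) and 0 were lower (background 5.97%). The median log2 difference over the 30 was 0.67 for dam 3 minus dam 1 and 0.88 for dam 3 minus dam 2, against -0.01 and 0.06 over all genes. Slc16a3 had the widest gap, 3.28 above dam 1 (SE 0.27) and 2.71 above dam 2 (SE 0.26), and its highest library held 12.6 times the CPM of its lowest. The edgeR adjusted p of Slc16a3 between dams was 0.000804. P4ha2 was higher by 2.14 and 1.68, Aldoc by 2.06 and 1.80, Bnip3 by 1.73 and 2.67, Ddit4 by 1.57 and 1.92, Pfkl by 1.43 and 1.08, and P4ha1 by 1.32 and 1.37, and each of these passed the test against both dams. Pgk1 passed against dam 1 alone (1.28), and Pdk1 (1.58), Pfkfb3 (2.04), Vegfa (1.39), Ndrg1 (1.07) and Kdm3a (0.91) against dam 2 alone. Of these, Pfkfb3, Ndrg1 and Kdm3a lay near dam 1 in dam 3 (0.03, 0.17 and -0.23) and were low in dam 2. Ldha and Pgam1 passed over the 3 dams (edgeR adjusted p 0.0409 and 0.0446) but not against either dam alone. Thus genes of both roles were high in dam 3: the lactate exporter, Pfkl, Aldoc, both collagen hydroxylase subunits, Bnip3 and Ddit4. The test over the 3 dams was not passed by Slc2a1, Hk1, Hk2, Gpi, Pfkm, Pfkp, Aldoa, Gapdh, Pkm and Pfkfb4. Nor was it passed by the hypoxia genes Egln3, Adm, Car9 and Mxi1.

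Dam 2 differed from dam 1 in another way. Against dam 1, 2 of the 30 were higher in dam 2 (background 10.4%), namely Eno1 by 1.11 and Gpi by 0.75. Another 5 were lower in dam 2 (background 13.4%), namely Pfkfb3 by -2.01, Kdm3a by -1.13, Bnip3 by -0.94, Hk2 by -0.93 and Ndrg1 by -0.90. Neither count is far from its background share. Hk2 and Gpi passed here although their test over all 3 dams did not (edgeR adjusted p 0.0713 and 0.0846).

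**Figure D4:**
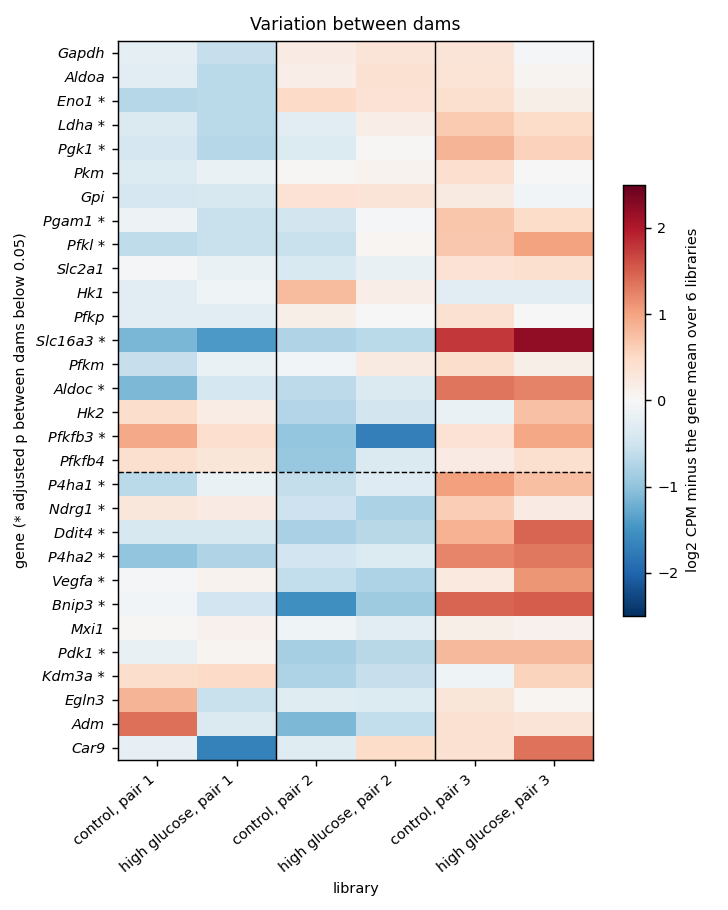
Log2 CPM of the 30 tested genes in each library minus the mean of the gene over the 6 libraries, by dam pair; stars mark the 16 genes with an adjusted p between dams below 0.05, and hypoxia genes stand under the dashed line. The pair 3 columns are red for most starred genes and darkest for Slc16a3, and the pair 2 columns are blue for Bnip3 and Pfkfb3.

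The calls between dams rested in part on pair 2. Without its control library 8 of the 30 passed and without its high glucose library 9, beside 612 and 589 of all genes. Slc16a3, Pfkl, Aldoc, Bnip3, Pdk1, Ddit4, P4ha1 and P4ha2 passed under all 11 settings tried, the main one included. Cell markers moved with dam as well. Summed cell cycle markers were at 694 and 830 CPM in dam 3 against 1053 to 1614 CPM in the others, and summed duct markers were at 5609 and 9689 CPM against 2403 to 4636 CPM. Mesenchyme markers were at 41929 and 34375 CPM in dam 3, 35527 and 31466 in dam 2 and 18215 and 25306 in dam 1. Their part in the dam differences was not tested.

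HIF binds DNA at a short core, and both spellings of it that were searched, ACGTG and GCGTG, were looked for on both strands in the bases before the annotated start of each gene (RefSeq sequences of the GRCr8 build, 250 bases, overlapping matches counted as 1). Of the 33 genes 31 had a window, and 21 of the 31 held a match in some window. Counted by window, 22 of 37 held a match (59.5%), against 36.7% of 33469 windows of all genes. With 3 or more matches there were 6 of the 37 (16.2%), against 4.17% of all. The windows of these genes were also richer in G and C, with a median of 63.6% against 51.2%, and both cores are GC-rich. Of the genes that differed between dams 12 of 14 with a window held a match, and of the other tested genes 7 of 14. These counts take a match in any window of a gene, so the 36.7% of windows is not their background. This split was not tested, and G and C content was not compared between its sides. Such a match is a description of the letters, not a binding site.

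The windows below are those of the 4 genes with the smallest adjusted p between dams (edgeR F-test), and of Ldha, which was added by hand. All of these had their 2 highest libraries in dam 3. So did Slc2a1, Pfkl, Aldoc, Pgk1, Pgam1, Pdk1, Vegfa and P4ha1, whose windows are not shown. The windows shown were chosen after the values were seen. Each runs 5′ to 3′ on the strand of its gene, and capitals mark matches to the core on either strand. Coordinates are of GRCr8: Slc16a3 chr10:106712078-106712327 (plus), P4ha2 chr10:38743644-38743893 (plus), Bnip3 chr1:203154963-203155212 (minus), Ddit4 chr20:28437038-28437287 (minus) and Ldha chr1:106507842-106508091 (plus).
Slc16a3: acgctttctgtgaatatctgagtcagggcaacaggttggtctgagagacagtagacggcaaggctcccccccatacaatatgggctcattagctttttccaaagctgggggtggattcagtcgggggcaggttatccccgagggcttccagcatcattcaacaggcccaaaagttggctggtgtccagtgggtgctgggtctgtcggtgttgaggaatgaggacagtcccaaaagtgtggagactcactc
P4ha2: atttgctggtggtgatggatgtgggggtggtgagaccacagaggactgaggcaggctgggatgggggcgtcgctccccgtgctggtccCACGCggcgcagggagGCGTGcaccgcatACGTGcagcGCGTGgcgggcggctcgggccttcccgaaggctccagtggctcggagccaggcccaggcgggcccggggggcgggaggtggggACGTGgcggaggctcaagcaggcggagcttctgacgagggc
Bnip3: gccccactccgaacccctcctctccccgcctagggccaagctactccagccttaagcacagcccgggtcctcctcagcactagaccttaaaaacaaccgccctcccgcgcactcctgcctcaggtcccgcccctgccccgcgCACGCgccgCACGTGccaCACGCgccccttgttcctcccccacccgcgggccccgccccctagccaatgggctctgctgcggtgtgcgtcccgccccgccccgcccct
Ddit4: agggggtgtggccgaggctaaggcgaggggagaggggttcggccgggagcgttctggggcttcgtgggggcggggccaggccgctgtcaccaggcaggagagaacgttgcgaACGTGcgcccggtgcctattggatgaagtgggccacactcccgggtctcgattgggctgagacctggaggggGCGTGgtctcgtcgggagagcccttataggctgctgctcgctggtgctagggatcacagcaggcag
Ldha: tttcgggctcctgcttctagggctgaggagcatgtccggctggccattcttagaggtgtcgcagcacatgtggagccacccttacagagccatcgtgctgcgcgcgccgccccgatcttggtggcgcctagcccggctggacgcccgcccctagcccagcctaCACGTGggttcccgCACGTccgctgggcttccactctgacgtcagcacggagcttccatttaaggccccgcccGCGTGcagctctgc
P4ha2 has 5 matches, Bnip3 and Ldha 3 each and Ddit4 2. The Slc16a3 window has 0.

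Other genes of the pathways were read from the same fit, and 0 passed the test for glucose in any of 6 lists (edgeR; the smallest adjusted p was 0.553, for Pklr). Among 28 other glycolysis and gluconeogenesis genes, 19 were tested, 5 were lower in high glucose in all 3 pairs (background 11.3%), 0 were higher (background 11.7%), and the median was -0.14. Pklr, the pyruvate kinase of liver and red cells, had the lowest value of these 5, with 36.3 CPM in control and 12.8 in high glucose of pair 1, 7.55 and 6.59 in pair 2, then 10.2 and 3.24 in pair 3 (fitted -1.13, SE 0.322). The summed red cell and leukocyte markers were lower in the same libraries, and the summed beta cell markers in those of pairs 2 and 3 but not of pair 1. The part of these cells in the Pklr values was not tested. G6pc3, the ubiquitous glucose-6-phosphatase, had the highest value of the 5, -0.22 (SE 0.181).

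Of 13 other glucose and monocarboxylate transporters 11 were tested, with a median of -0.09, and Slc16a7 alone had one direction in all pairs (-0.47, SE 0.540). Slc2a2, the GLUT2 transporter of beta cells, was at 79.5 and 173 CPM in pair 1, 15.8 and 30.1 in pair 2, then 141 and 23.2 in pair 3, which has the sign of the summed beta cell markers, of which it is 1, in pairs 1 and 3 but not in pair 2. Of 14 genes of pyruvate entry into mitochondria 13 were tested, with a median of -0.02 and 0 with one direction. Of 7 pentose phosphate genes all were tested, with a median of -0.17, and Pgd was lower in 3 of 3 pairs (-0.21, SE 0.207).

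Of 15 HIF subunits and regulators 13 were tested, with 2 higher and 2 lower in all 3 pairs (background 11.7% and 11.3%) and a median of -0.07. Hif1a, the oxygen-regulated subunit, was at 565 CPM in control and 595 in high glucose of pair 1, 269 and 423 in pair 2, then 409 and 526 in pair 3 (fitted 0.36, SE 0.202). Cited2, a competitor for the HIF coactivator, was lower in 3 of 3 pairs (-0.20, SE 0.179). Hif1a was thus higher in each high glucose library than in its pair, as were 11.7% of all genes. Of 34 other hypoxia targets 30 were tested, with 6 higher and 1 lower in all 3 pairs (background 11.7% and 11.3%) and a median of 0.00. The highest of the 6 was Lox, the collagen cross-linking oxidase, at 79.5 and 165 CPM in pair 1, 40.02 and 47.8 in pair 2, then 235 and 262 in pair 3 (fitted 0.49, SE 0.215), and the 1 lower in all pairs was Higd1a, a mitochondrial protein (-0.15, SE 0.180). Between dams 18 of these 30 differed, beside the 22.8% of all genes, and 7 of the 19 other glycolysis genes did.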

How the data were processed

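The 6 deposited tables hold whole-number counts per gene. Per the file headers, the authors counted read pairs with featureCounts of Subread 1.5.1 (paired reads, strand setting 2, mapping quality of at least 10, UCSC refGene annotation of rn6). STAR 2.5 and edgeR 3.12.1 are named in the submitters' processing notes, which list the mouse build mm10 beside rn6. Strand-aware counting keeps antisense genes apart.

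Pairs were taken from the stem that 2 sample titles share, as the series design names the horns of a dam as paired controls. Deviations from the group means correlated at 0.474, 0.621 and 0.413 within a dam and at -0.454 to -0.004 across dams. Such deviations cancel out within a group, so positive values within dams make those across dams negative on balance. The values across dams are therefore no separate evidence for the pairing. The fit used edgeR 4.0.16 under R 4.3.3 (scaling by TMM, filterByExpr, robust quasi-likelihood F-test, dam block plus treatment, Benjamini-Hochberg over 12276 genes, threshold 0.05). The tested genes held 99.95% of the counts, and no row lacked a gene name. Pair differences are of log2 CPM (prior count 2). RPKM divides by the exon length in the tables. limma 3.58.1 (voom) and DESeq2 1.42.0 served as alternatives, beside other scalings, no filter, no block and leaving out each pair. The fitting was tested on simulated data, drawn with the spread fitted for genes of like abundance and not that of each gene. It therefore does not show how large a change these 3 pairs could detect. The members, the gene lists, the dam comparison and the motif search were chosen with earlier results of these data known. Every member was named, and of each related list the genes past the threshold or, with none, the highest and lowest with 1 direction in all 3 pairs and a mean count of at least 20; Slc2a2 was added after its values were seen. Motif windows are RefSeq sequences of GRCr8, matched by symbol; no rn6 sequence was used. A single-gene result is left out here.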

Additional observations from a re-analysis of the deposited data

How the results depend on the processing

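The call of 0 of the 30 genes for glucose held under all 9 alternatives. The number of all genes called, 2, became 4 with upper-quartile scaling, 18 without the filter, 106 with DESeq2, 4 with limma voom and 18 to 55 without 1 pair. Without the replicate block it was 0, and the median of the hypoxia genes was 0.059 in place of 0.14; without 1 pair that median lay between 0.024 and 0.16. The median of the glycolysis genes, -0.06, kept its sign under 6 alternatives and was 0.02, -0.08 and 0.00 without pairs 1, 2 and 3. No scaling moved the median of all genes beyond -0.02 to 0.01.

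Leaving out 1 pair turned the sign of 5, 6 and 6 of the 30 differences without pairs 1, 2 and 3; the other 6 alternatives, the unpaired fit included, turned 0. The ranges without 1 pair were -0.052 to 0.11 for Slc2a1, -0.11 to 0.27 for Slc16a3, -0.31 to 0.092 for Hk1, -0.27 to 0.046 for Pgk1, -0.34 to 0.094 for Pgam1, -0.18 to 0.12 for Pkm, -0.25 to 0.12 for Ldha, -0.62 to 0.047 for Pfkfb3, -0.18 to 0.33 for Bnip3, -0.0094 to 0.49 for Vegfa, -0.90 to 0.21 for Adm, -0.35 to 0.88 for Car9, -0.095 to 0.024 for Mxi1 and -0.012 to 0.39 for P4ha1. The Pfkm to Pfkl ratio ran from -0.46 to 0.018, Aldoc to Aldoa from 0.13 to 0.63 and Hk2 to Hk1 from 0.23 to 0.89. The cause was not tested.

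Between dams, leaving out 1 library gave 8 to 22 of the 30 genes (16 with all) and 589 to 4487 of all genes (2795 with all). The most, 22, came without the high glucose library of pair 3, and a dam left with 1 library is assumed to vary like the others. Other scalings, no filter and voom gave 15 or 16 of the 30; these were chosen after seeing the data. With 3 pairs, the intervals of Egln3, Adm, Car9 and Pfkfb4 reach past 2-fold, and the last 2 are thinly counted.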
